A study of Homo sapiens with 25 samples.

Results

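Halving histidine in the medium of DND-41 cells was examined in 11 of the 25 RNA libraries of a histidine dose series. DND-41 is an established human T-cell acute lymphoblastic leukaemia line. The labels place 3 libraries in 50% histidine medium on day 6 and 2 on day 9, against 3 libraries in 100% histidine medium on each of the same days. All 5 libraries at 50% and all 6 at 100% were taken by their labels and not by a measured value. The question was whether pooling both days, with day as a term in the fit, shows a response to the smaller restriction, and how small any response would then have to be. The series also holds cells at 25% histidine (2 libraries on day 6, 3 on day 9), at 12.5% (3 on each day) and without histidine (3 on day 6, of which replicate 1 has day 6 in its title and day 9 in its time label). No genotype, strain or further agent separates the groups. The labels name the percentage of histidine only, and they do not say whether replicates came from different cultures. The p-values therefore rest on the spread among these libraries, which may be technical.

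Histidine is an essential amino acid that animal cells take up through membrane transporters and load onto its tRNA with histidyl-tRNA synthetase. When a tRNA stays uncharged, the kinase GCN2 phosphorylates the initiation factor eIF2α, general translation falls and the transcription factor ATF4 raises genes for amino acid synthesis, uptake and tRNA charging. Scarce amino acids also lower the activity of mTORC1, the growth kinase complex upstream of ribosome production and of SREBP-driven sterol and fatty acid synthesis.

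The genes most closely tied to that response were a fixed list of 40 ATF4 targets. ATF4 binds with C/EBP partners to sites in promoters, and the motif TGATGNAAN was searched on both strands in the RefSeq promoters of GRCh38.p14, over the 250 bases before each gene's start. It was found for 8 of the 33 list genes that had a promoter in the table (24.242%), and in 1100 of all 35116 promoters (3.132%). The first share counts genes with a match in any promoter, the second single promoters, so they are not directly comparable. The stretches around it in 4 list genes, of which CHAC1 and SLC1A5 rose at 25% histidine, are given 5′ to 3′ on the gene's strand with the motif in capitals. ASNS, which makes asparagine, has it within chr7:97872428-97872516 (minus strand). CHAC1, which degrades glutathione, lies at chr15:40953221-40953309 (plus strand). AARS1, the alanyl-tRNA synthetase, lies at chr16:70289646-70289734 (minus strand). SLC1A5, a neutral amino acid carrier, lies at chr19:46784863-46784951 (minus strand). In CHAC1 and AARS1 the motif is on the opposite strand, so the capitals there are its reverse complement. A match describes the letters and does not show binding.
ASNS: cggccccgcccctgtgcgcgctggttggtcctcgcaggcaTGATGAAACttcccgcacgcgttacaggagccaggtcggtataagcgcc
CHAC1: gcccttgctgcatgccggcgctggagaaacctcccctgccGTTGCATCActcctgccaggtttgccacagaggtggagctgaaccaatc
AARS1: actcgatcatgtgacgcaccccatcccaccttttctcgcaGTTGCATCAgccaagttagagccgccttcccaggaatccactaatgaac
SLC1A5: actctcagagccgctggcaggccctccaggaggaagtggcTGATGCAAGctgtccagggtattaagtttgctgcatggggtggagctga

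The 11 libraries were alike in scale, with totals of normalized counts between 14360500 and 16097400, and the depth in reads is unknown. All 15 T-lineage markers (CD3D, CD7, TLX3 and others) reached 10 in every one of them. The B-cell gene CD79A was also abundant, and summed B-cell markers ranged from 11969 to 19604 at 50% and from 14366 to 17838 at 100%. The summed keratins KRT8, KRT18 and KRT19, which mark epithelial cells, exceeded 100 in 4 libraries, all of day 6: replicates 1 (383) and 2 (1406) at 100%, and replicates 1 (1196) and 2 (119) at 50%. The 5.8S ribosomal RNA ranged from 153 to 1181 at 100% and from 145 to 157 at 50% on day 6, and from 157 to 360 at 100% and from 142 to 593 at 50% on day 9. In an exact within-day permutation test of 6 such library properties (two-sided, 200 arrangements, smallest possible p = 0.01), p ranged from 0.35 to 0.965 and the Benjamini-Hochberg adjusted p from 0.83 upwards, which does not show that the libraries were equal. In bulk RNA, fewer cells of one state and less RNA per cell cannot be told apart.

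Pooling both days showed no single-gene response to 50% histidine. Of 15108 genes tested, 0 rose and 0 fell (0.00% called) in limma's moderated test on log2(normalized count + 1) with day as a term and a Benjamini-Hochberg threshold of 0.05. The lowest unadjusted p was 1.54e-04 and the lowest adjusted p 0.999. An unadjusted p under 0.05 was reached by 507 genes (3.36%), 264 higher and 243 lower, where 5% of the genes tested would be 755.4. The other 17 ways of processing and all 11 fits that left out a library also called 0 genes, with 358 to 1199 genes at an unadjusted p under 0.05. A p that misses the threshold does not show that values did not differ.

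The same design applied to 25% histidine, also 5 libraries against the same 6, called 5720 of 15127 genes (37.8%), of which 2848 rose and 2872 fell, and 6825 (45.1%) had an unadjusted p under 0.05. At 12.5%, with 6 against 6, 6591 of 15184 genes were called (43.4%), 3007 higher and 3584 lower, so that 45.6% of the calls were rises; under upper-quartile scaling that share was 56.6%. The 3 comparisons share their 100% libraries. A direct comparison of 25% with 50% histidine, which uses no 100% library, called 4105 of 14918 genes (27.5%), 2022 higher and 2083 lower at 25%. Without the libraries whose keratin sum exceeded 100, and so with fewer libraries, 25% against 100% called 3699 genes and 25% against 50% called 1406.

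**Figure D1:**
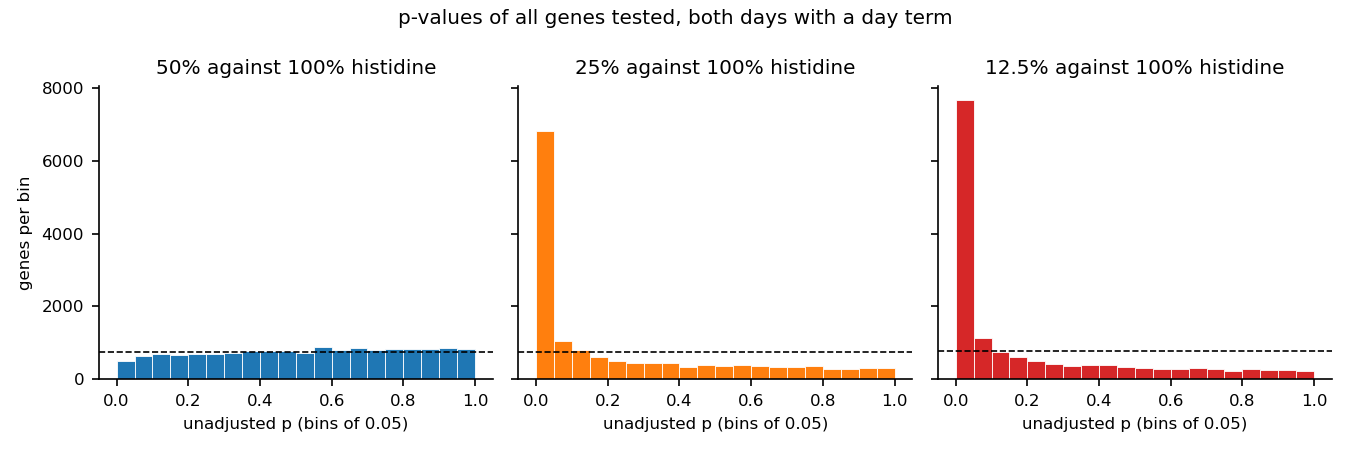
Unadjusted p-values of all genes tested, in bins of 0.05 (horizontal axis) against the number of genes per bin (vertical axis), for 50%, 25% and 12.5% against 100% histidine with a day term. The dashed line marks 5% of the genes tested. At 50% the first bin holds 507 genes, under the line, and at 25% it holds 6825.

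Within single days the outcome was the same in the main test. On day 6 (3 against 3), 0 genes passed, 474 had an unadjusted p under 0.05, and the lowest adjusted p was 0.967. On day 9 (2 against 3), 0 passed, 628 had an unadjusted p under 0.05, and the lowest adjusted p was 0.106. The difference between the days was also tested, and 0 genes passed, with 585 at an unadjusted p under 0.05 and a lowest adjusted p of 0.97. These counts were less stable than the pooled one. Library weights that did not converge called 902 genes on day 6. Without replicate 1 of day 9 at 50%, 2 genes were called on day 9 and 2 for the difference between days, and without replicate 2 the counts were 13 and 1.

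Genes whose 50% libraries lay entirely above or below the 100% libraries on both days were few. There were 73 such genes on the high side (0.483%) and 46 on the low side (0.304%), compared with 2162 (14.3%) and 2180 (14.4%) at 25% histidine. For a gene without tied values, a share of 0.01 of the 200 within-day arrangements of the 50% and 100% labels gives such a pattern on either side.

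How small a response must be followed from the confidence intervals of the pooled fit. The median absolute log2 difference at 50% was 0.08, and the 95% interval reached a median of 0.26 on either side of the estimate. Intervals lay wholly inside a 2-fold change in either direction for 13164 genes (87.1%), and wholly inside a 1.5-fold change for 10570 genes (69.96%). These intervals are per gene and are not adjusted for the number of genes. Precision depended on level. Among the 6202 genes with a mean of at least 500, 6162 (99.4%) were held within 1.5-fold, with a median half-width of 0.17. For the 5025 genes between 50 and 500 the share was 82.2% and the half-width 0.29. For the 3881 genes under 50 the share was only 7.19% and the half-width 0.72, so a 1.5-fold change in a weakly expressed gene was mostly not detectable here.

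A lone responding gene would have needed an unadjusted p of 3.31e-06 to pass over this many genes. At the median standard error that corresponds to a log2 difference of 0.89, or 0.60 for genes at 500 or more. A broad response would have needed less, because the threshold relaxes as more genes respond. At 25% histidine the largest unadjusted p that was still called was 0.0189, which at the standard errors of the 50% comparison is a log2 difference of 0.32, or 0.22 for genes at 500 or more. The genes called at 25% had a median absolute log2 difference there of 0.42, and 0.36 among those at 500 or more.

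Several genes that moved by 2-fold or more at 25% histidine had 50% values close to those of full medium. SCD (chr10:100347124-100364834, plus strand in GENCODE 29), which introduces the double bond of oleic acid, had normalized counts of 27094, 23734 and 22876 at 100% and 23083, 22599.6 and 22473 at 50% on day 6. On day 9 it had 20796, 22081 and 20988 at 100% and 18829.9 and 21935 at 50%. The 50% libraries overlapped the full-medium range on both days. The pooled log2 difference was -0.09 (95% interval -0.24 to 0.06, SE 0.07), compared with -1.21 at 25% and -1.90 at 12.5%, and the difference between 25% and 50% was -1.12 (-1.28 to -0.95, limma adjusted p = 1.48e-06).

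DHCR7, the last enzyme of cholesterol synthesis, had 2009, 1830.2 and 1849 at 100% and 1738, 1868 and 1359 at 50% on day 6. On day 9 it had 1756, 2131 and 1948 against 1504 and 1723. On day 9 both 50% libraries lay below all 3 at 100%, while on day 6 one lay inside the 100% range. The pooled difference was -0.23 (-0.42 to -0.05, unadjusted p = 0.0158), with a limma adjusted p of 0.999. At 25% its log2 difference was -1.78, and between 25% and 50% it was -1.52 (-1.73 to -1.32).

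MCM2, a subunit of the replicative helicase, had 9748, 8824 and 9583 at 100% and 9175, 10462 and 7575 at 50% on day 6. On day 9 it had 10496, 11776 and 12131 against 11285 and 11273, so the groups overlapped on both days. Its difference was -0.04 (-0.21 to 0.13) at 50%, -1.11 at 25% and -1.50 at 12.5%. TXNIP, an inhibitor of thioredoxin and of glucose uptake, differed by -0.01 (-0.23 to 0.21) at 50%, and rose by 1.32 at 25% and 1.49 at 12.5%. QARS1, the glutaminyl-tRNA synthetase, differed by 0.01 (-0.14 to 0.16) at 50% and by -1.01 at 25%.

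**Figure D2:**
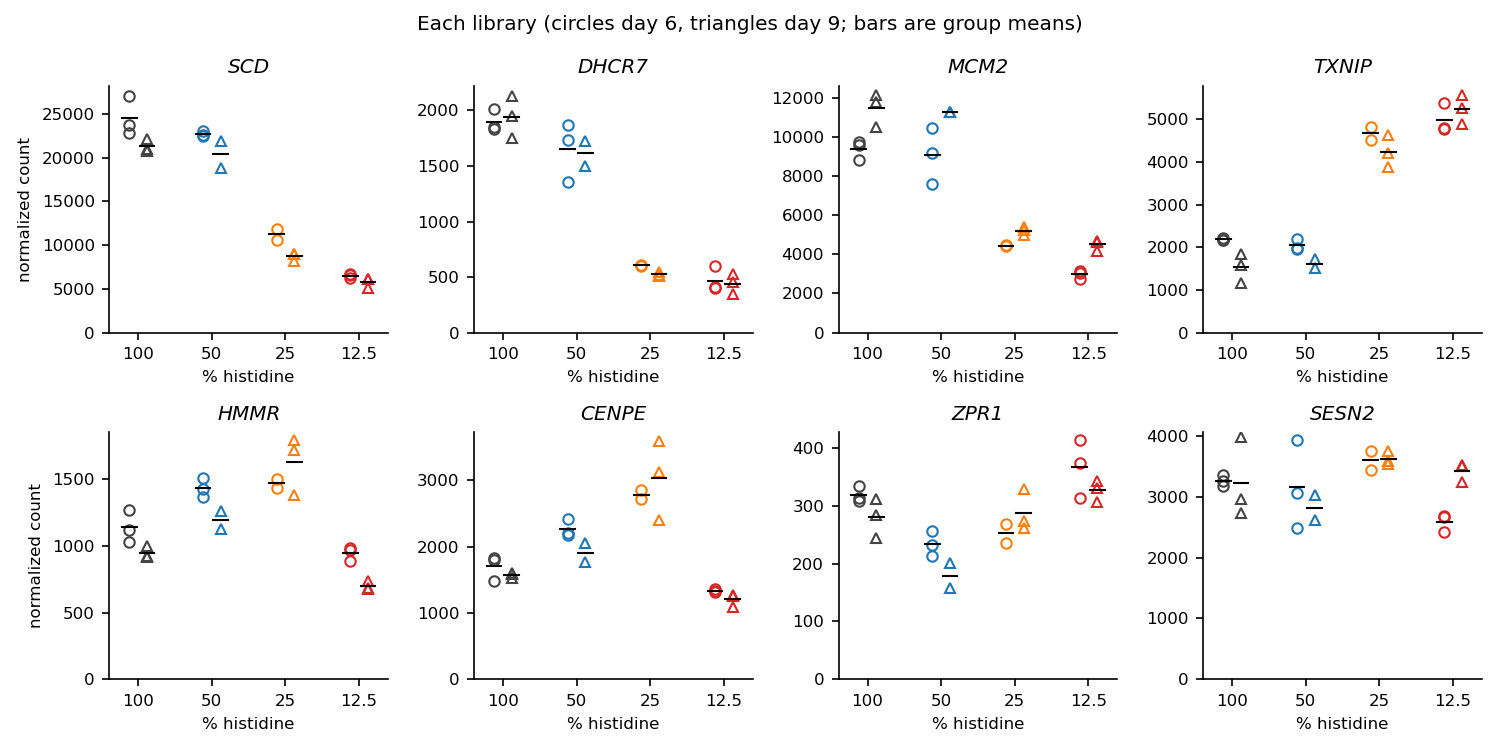
Normalized counts (vertical axis, from 0) of 8 genes in each library against the percentage of histidine (horizontal axis), with circles for day 6, triangles for day 9 and bars for group means. SCD, DHCR7 and MCM2 drop and TXNIP climbs between 50% and 25% histidine, while HMMR and CENPE, compared within a day, are above the 100% libraries at 50% and below them at 12.5%.

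Histidine's own genes were near their full-medium level. HARS1, the cytosolic histidyl-tRNA synthetase, had 1128, 1059 and 949 at 100% and 1073, 1089 and 991 at 50% on day 6, and 950.4, 1147 and 1060.0 against 1084 and 1012 on day 9. The groups overlapped, with a difference of 0.00 (-0.15 to 0.16). SLC7A5, the transporter subunit that carries large neutral amino acids and histidine, differed by -0.14 (-0.34 to 0.06), and SLC15A4, a lysosomal histidine carrier, by -0.03 (-0.26 to 0.20). Over the 17 tested genes of histidine charging, carriage and modification, 0 rose and 0 fell, 7 estimates were above 0 and 10 below, and the median was -0.05. At 25% histidine, 4 of the 17 rose and 1 fell, beside 37.8% of all genes called there. Over all genes tested the median at 50% was 0.00, with 7624 estimates above 0 and 7484 below.

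The ATF4 targets showed no shared direction at 50%. Of 37 tested, 0 passed and 0 had an unadjusted p under 0.05, 16 estimates were positive and 21 negative, the median was -0.01 (-0.03 on day 6 and 0.01 on day 9), and 34 had intervals within 1.5-fold. TRIB3, a pseudokinase that restrains ATF4 output, differed by 0.03 (-0.15 to 0.21), DDIT3, the stress factor CHOP, by 0.13 (-0.06 to 0.32), and SESN2, a leucine sensor of mTORC1, by -0.12 (-0.36 to 0.13). At 25% histidine TRIB3 fell by 0.81 and DDIT3 fell by 0.88. There the list was split, with 10 members that rose, 9 that fell and a median of 0.06, beside 37.8% of all genes called.

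The 4 genes whose promoters are printed above also lay within their spread at 50%. CHAC1 differed by -0.04 (-0.36 to 0.27) and SLC1A5 by -0.11 (-0.29 to 0.08). At 25%, CHAC1 rose by 0.62 and SLC1A5 by 0.49. AARS1 differed by 0.05 (-0.11 to 0.21) at 50%, and fell by 0.17 at 25%. ASNS was weakly expressed and uneven, at 15.6, 45.0 and 8.92 in the 100% libraries of day 6 and 9.86, 36.7 and 116 in those at 50%. On day 9 it had 68.5, 24.3 and 14.0 against 39.0 and 34.0, and its interval ran from -0.59 to 1.86. That range includes both no change and a rise of more than 2-fold, so the data place little limit on ASNS.

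No gene of the sensing and translation lists passed at 50%. Among 35 genes of GCN2, mTORC1 and amino acid sensing the median was -0.02 with 0 calls, and 1 had an unadjusted p under 0.05. The 20 cytosolic tRNA synthetases had a median of 0.00 with 12 estimates above 0, and all 20 intervals lay within 1.5-fold. At 25%, where 37.8% of all genes were called, 4 of them rose and 9 fell. The 32 genes of ribosome biogenesis had a median of -0.02, and 22 of them fell and 2 rose at 25%.

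In other lists a pooled median near 0 came from days with opposite signs. The 44 cytosolic ribosomal proteins had a pooled median of -0.01. It was -0.12 on day 6, where 43 estimates were negative, and 0.16 on day 9, where 43 were positive. Against the full-medium mean of its day, the list's median was -0.08, 0.13 and -0.41 in the 50% libraries of day 6. On day 9 it was 0.32 and -0.02, so libraries of the same day differed in sign. Leaving out single libraries moved the pooled median from -0.10 to 0.08. The 35 nuclear genes of oxidative phosphorylation had a pooled median of 0.03 (-0.04 to 0.11 with libraries left out). On day 6 it was -0.07 with 30 negative, and on day 9 it was 0.14 with 33 positive. By library at 50% their medians were -0.07, 0.22 and -0.40 on day 6 and 0.27 and 0.02 on day 9. The 13 mitochondrially encoded genes had -0.21 on day 6 and 0.07 on day 9, and the 11 D-type cyclins and cell cycle inhibitors -0.11 and 0.10. By library the mitochondrial genes had -0.48, -0.19 and 0.06 on day 6 and 0.49 and -0.32 on day 9. The cyclin list kept its sign within each day, at -0.06, -0.13 and -0.12 on day 6 and 0.12 and 0.07 on day 9. Over all genes tested, 7929 estimates were negative on day 6 and 8152 positive on day 9, with medians of -0.01 and 0.02. The gene-by-gene test of the difference between days passed 0 genes, and members of one list are not independent.

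Lipid synthesis genes lay slightly low without a call. Of 24 tested genes of cholesterol synthesis 20 had negative estimates at 50%, with a median of -0.05, a range of -0.08 to -0.01 when libraries were left out, and all 24 intervals within 1.5-fold. DHCR7 and LSS, the lanosterol synthase, were the 2 with an unadjusted p under 0.05. Set against the full-medium mean of their day, the list's median was -0.03, -0.00 and -0.23 in the 50% libraries of day 6 and -0.02 and -0.06 on day 9, while single 100% libraries ran from -0.11 to 0.12. The 50% values therefore lay inside the range of the full-medium libraries except for replicate 3 of day 6. At 25% the libraries ran from -0.86 to -0.50, with 20 of the 24 genes lower and 2 higher, beside 37.8% of all genes called there. The 14 genes of fatty acid synthesis and desaturation had a median of -0.07 with 11 negative, compared with -0.62 and 10 that fell at 25%. Leaving out single libraries moved that median at 50% from -0.10 to -0.04. By library at 50% it was -0.041, -0.070 and -0.097 on day 6 and -0.163 and -0.016 on day 9. Single 100% libraries ran from -0.045 to 0.087, so some 50% libraries lay below all of them and others did not.

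Mitotic genes shared a sign at 50%. All 32 tested genes of G2/M and mitosis had positive estimates, with a median of 0.14 (0.10 to 0.17 when libraries were left out), a median of 0.08 on day 6 and 0.22 on day 9. None passed the adjusted threshold, 9 had an unadjusted p under 0.05, and all 32 intervals lay within 1.5-fold. Over all genes tested, 3.36% had an unadjusted p under 0.05 and 50.5% had positive estimates. Against the full-medium mean of its day, the list's median was 0.08, 0.19 and 0.02 in the 3 libraries of day 6 and 0.28 and 0.12 on day 9. Single 100% libraries ran from -0.04 to 0.06 over both days. Of the 5 libraries at 50%, 4 lay above all of them and replicate 3 of day 6 did not. Within day 6 alone the 100% libraries ran from -0.02 to 0.01, and that replicate lay just above them at 0.02. The genes of this list are expressed together, so they are not 32 separate observations. At 25%, 29 of the 32 rose and AURKB fell, with a median of 0.68, and at 12.5%, 7 rose and 17 fell, with a median of -0.18. The shares of all genes called were 37.8% at 25% and 43.4% at 12.5%.

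HMMR and CENPE had the 2 lowest p-values among all genes tested that were higher at 50%. HMMR (chr5:163460203-163491945, plus strand), a spindle-associated hyaluronan receptor, had 1270.0, 1117 and 1032 at 100% and 1429, 1507 and 1366 at 50% on day 6, and 998, 918 and 927 against 1263 and 1129.9 on day 9. No 50% value overlapped the full-medium range of its day. The difference was 0.34 (0.19 to 0.48, SE 0.07) at an unadjusted limma p of 2.40e-04 and an adjusted p of 0.999.

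CENPE (chr4:103105806-103198409, minus strand), a kinetochore motor that aligns chromosomes, had 1805, 1835 and 1485 at 100% and 2212, 2170.3 and 2421 at 50% on day 6, and 1601, 1530.4 and 1586 against 2052 and 1767 on day 9. Here too the groups did not overlap on either day. The difference was 0.35 (0.20 to 0.51) at an unadjusted limma p of 2.56e-04 and an adjusted p of 0.999. It rose by 0.83 at 25%, and the difference between 25% and 50% was 0.48 (0.24 to 0.72, limma adjusted p = 0.00608). BUB1, a spindle checkpoint kinase, differed by 0.18 (0.05 to 0.31) at 50%, and AURKB, the kinase of the chromosomal passenger complex, by 0.15 (-0.02 to 0.33). Counting HMMR, CENPE, BUB1 and NUSAP1, a spindle protein named after its values were seen, 4 of the 32 mitotic genes lay above the full-medium range on both days, beside 0.483% of all genes.

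The lowest p of all belonged to a gene on the low side. ZPR1 (chr11:116773799-116788050, minus strand), a zinc finger protein that binds the elongation factor eEF1A, had 334, 308 and 314 at 100% and 213, 233 and 257 at 50% on day 6. On day 9 it had 312, 245 and 285 against 158 and 200.4. The groups did not overlap on either day, and the difference was -0.53 (-0.76 to -0.31, SE 0.10) at an unadjusted limma p of 1.54e-04 and an adjusted p of 0.999. At 25% and 12.5% ZPR1 differed by -0.13 and 0.21, neither of which passed.

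Other genes near the top were spread over functions. PTCD2, a mitochondrial RNA-processing protein, differed by -0.57 (-0.84 to -0.30), and ESCO1, a cohesin acetyltransferase, by 0.47 (0.24 to 0.70). PTPN22, a phosphatase of T-cell receptor signalling, differed by 0.47 (0.22 to 0.71), PYROXD1 by 0.38 (0.17 to 0.58), and FAAP100, of the Fanconi anaemia core complex, by -0.38 (-0.59 to -0.17). At 25% these genes had log2 differences of -0.51, 0.35, 0.56, 0.40 and -0.36, in the same order. Each had a limma adjusted p of 0.999 at 50% and passed 0.05 at 25%, where 37.8% of all genes were called. The genes were chosen by their low p at 50%, and both comparisons share the 100% libraries. Their values at 25% are thus not independent of those at 50%.

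Some low p-values sat on features that counting resolves poorly. MED17 had 11.6, 7.04 and 10.0 at 100% against 19.5, 153 and 60.0 at 50% on day 6, a scatter of several-fold within a group. MIR3648-1 and MIR3648-2 carried identical values, with a difference of -0.52. SENP3-EIF4A1, a readthrough of 2 neighbouring genes that shares sequence with both, had 55.4, 66.1 and 45.4 at 100% on day 9 but 4.55 and 16.4 at 50%. On day 6 it had 74.8, 55.7 and 69.7 against 46.9, 53.1 and 48.3. Its low value at 50% was thus mostly on day 9, and the division of reads among such overlapping transcripts is uncertain.

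**Figure D3:**
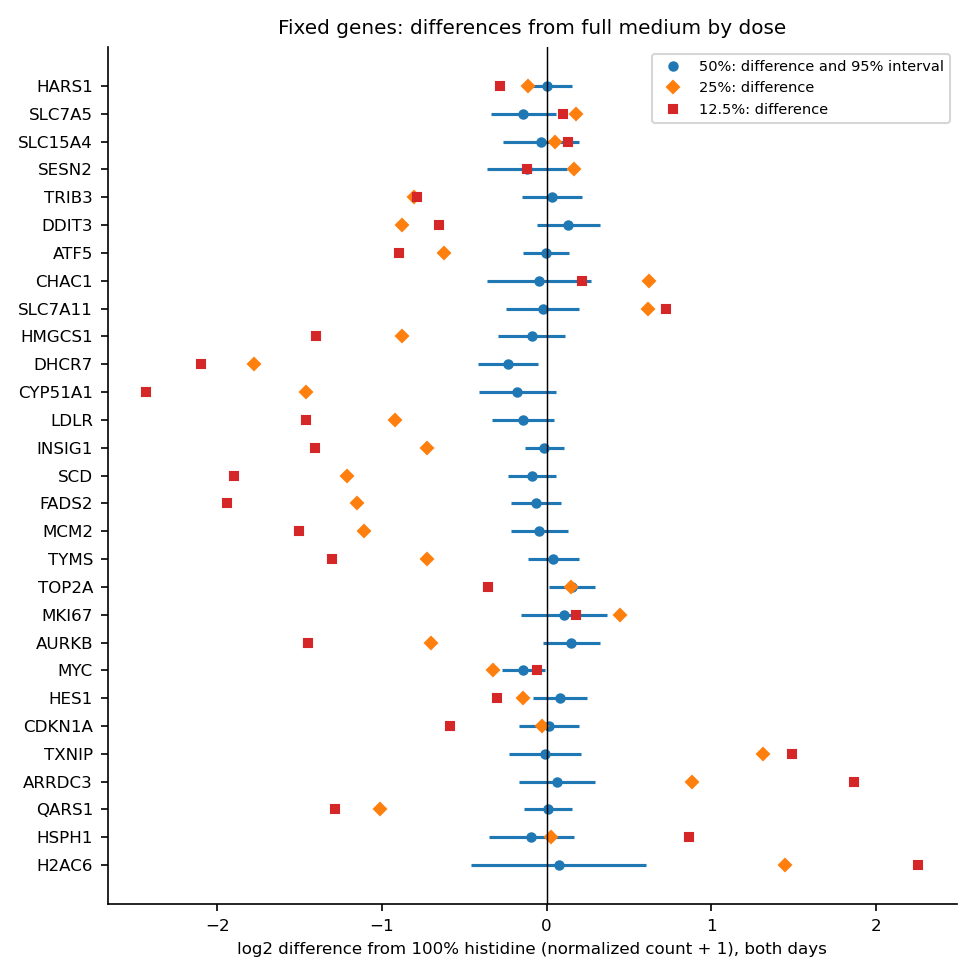
Log2 difference from 100% histidine, with both days pooled (horizontal axis), for most of the genes named whatever their values (vertical axis). Circles with bars give 50% and its 95% interval, diamonds 25% and squares 12.5%. At 50% the intervals of DHCR7, TOP2A and MYC leave out 0 before adjustment, while at 25% SCD lies at -1.21 and TXNIP at 1.32.

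Other fixed genes can be given briefly. MYC, a NOTCH1 target and growth regulator in this leukaemia, had an interval of -0.27 to -0.01 at 50% with an unadjusted limma p of 0.0354 and an adjusted p of 0.999, and fell by 0.32 at 25%. HES1, another NOTCH target, and CDKN1A, the inhibitor p21, had intervals that included 0. CCND2 was not tested, since it was listed at 0 in all 5 libraries at 50% and in 4 of the 6 at 100%, with 13.9 and 6.01 in the other 2. JUN, an immediate early factor, differed by 0.30 (0.05 to 0.55) at an unadjusted p of 0.0232, and rose by 1.80 at 25%. CCNG2, a cyclin of quiescent cells, differed by 0.19 (0.04 to 0.33) and rose by 0.75 at 25%. Of the 19 tested FOXO and quiescence genes, 11 had positive estimates at 50% with a median of 0.02, which was -0.07 on day 6 and 0.16 on day 9 and reached -0.01 when a library was left out. At 25%, 14 rose and 0 fell, beside 37.8% of all genes called there.

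The genes with the largest rises at 25% histidine differed less at 50%, and none passed there. TRBV6-2, a T-cell receptor variable segment, rose by 2.05 at 25% and differed by -0.10 at 50%. CLK1, a splicing kinase, rose by 2.06 and differed by 0.37 (-0.03 to 0.77), CDCA3, a mitotic entry factor, rose by 1.83 and differed by 0.10, and TMEM198 rose by 1.95 and differed by -0.05. Each was higher at 25% than at 50% in the direct comparison, by 2.12, 1.74, 1.69 and 1.94. That comparison uses the same 25% libraries by which these genes were chosen, so the choice itself favours a smaller difference at 50%. MMP9, a gelatinase, and TWF2-DT were low in count, and differed by 0.34 (-0.63 to 1.31) and 0.41 (-0.53 to 1.36) at 50%, which leaves a rise of 2-fold possible. The largest falls at 25% were those of TRO, PRMT7, PDCD6P1, CDR2L, DHCR7 and UNC5B, at -3.16, -2.31, -2.06, -1.83, -1.78 and -1.72. At 50% TRO, a trophinin, differed by -0.15 (-0.79 to 0.50), PRMT7, an arginine methyltransferase, by 0.15 (-0.40 to 0.70), and PDCD6P1 by -0.00 (-0.39 to 0.38). CDR2L differed by -0.19 (-0.71 to 0.33) and UNC5B, a netrin receptor, by 0.12 (-0.22 to 0.45). Of these 6, only the interval of DHCR7 leaves out 0.

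Replication genes split from mitotic genes. The 35 genes of G1/S and DNA replication had a median of -0.00 at 50%, with 17 estimates above 0 and 18 below, and all 35 intervals within 1.5-fold. At 25%, 11 of them rose and 14 fell, and at 12.5%, 1 rose and 29 fell, with a median of -0.53. Of all genes, 37.8% were called at 25% and 43.4% at 12.5%. The 19 heat shock genes had a median of -0.09 at 50% with 17 negative and 0 called. At 12.5%, 18 of them were tested, of which 11 rose and 2 fell. HSPH1, an HSP70 partner, differed by -0.09 (-0.35 to 0.17) at 50% and rose by 0.86 at 12.5%.

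**Figure D4:**
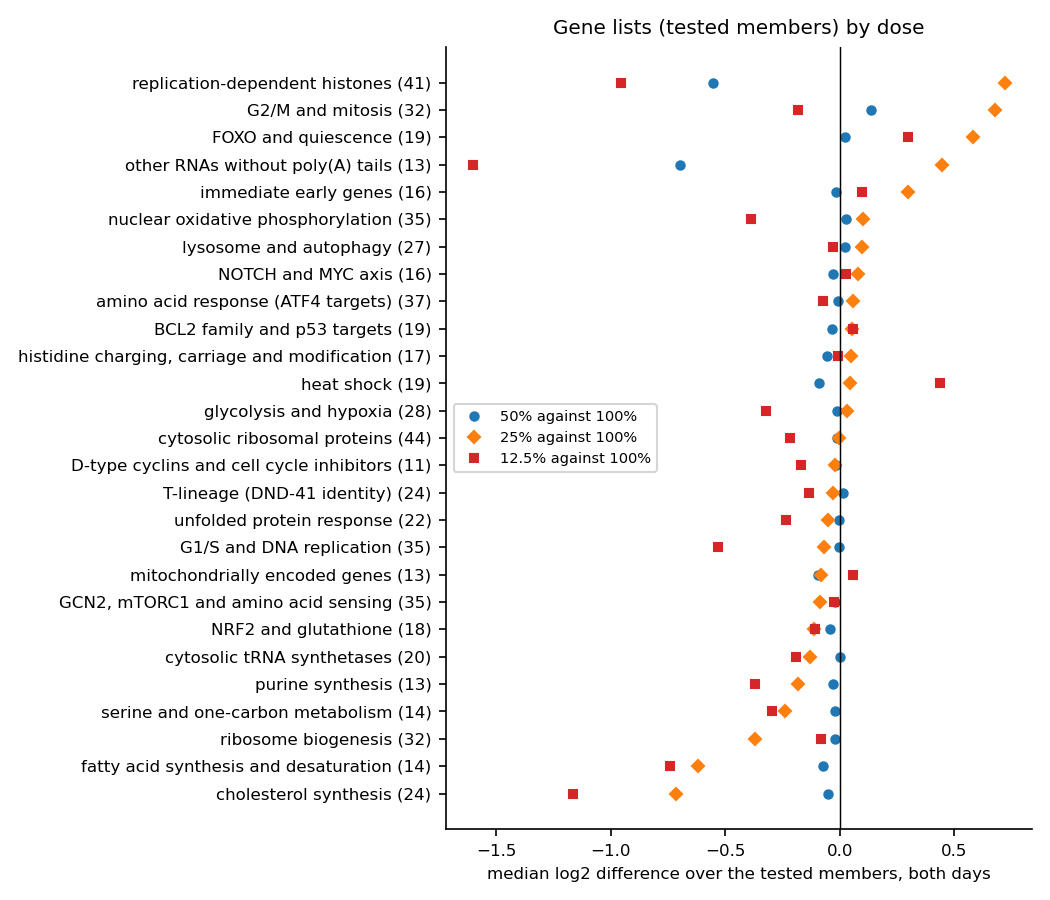
Median log2 difference over the tested members of each fixed gene list (horizontal axis), with the number tested in brackets beside the list's name, for 50% (circles), 25% (diamonds) and 12.5% (squares) against 100% histidine. Apart from histones, other RNAs without poly(A) tails and mitotic genes, every list plotted has its circle within 0.1 of 0.

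Histone transcripts had the lowest median of the protein-coding lists at 50%, and it moved with a library property. Replication-dependent histone mRNAs end in a stem-loop and carry no poly(A) tail. Of 41 tested, 39 had negative estimates with a median of -0.55, 0 passed, and the median was -1.01 on day 6 but 0.11 on day 9. Leaving out single libraries moved it between -0.81 and -0.24. With 5.8S rRNA as a covariate the median was -0.07. On day 6 that RNA ran from 145 to 157 at 50% and from 153 to 1181 at 100%. The covariate is thus partly tied to dose, and this fit cannot tell them apart. The list's level in the 100% libraries ran from -0.83 to 0.85 on day 6 around their mean, as wide as the difference itself. The 13 other RNAs without poly(A) tails had a median of -0.70, at -1.46 on day 6 and 0.26 on day 9, on the same side as the histones on each day. At 25%, 16 of the 41 histone genes rose and 0 fell, beside 37.8% of all genes called there. Near-identical histone genes share reads, so single members such as H4C13 at -1.53 (-2.37 to -0.69) are uncertain.

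The response seen at lower doses was then read at 50% in libraries not used to choose it. Genes were chosen at 12.5% histidine on one day, by an adjusted p under 0.05 and a change of at least 2-fold with the higher group's mean at 50 or above, and read on the other day, whose libraries are separate. The 218 genes that rose on day 9 had a median log2 difference on day 6 of -0.01 at 50%, 0.44 at 25%, 0.97 at 12.5% and 1.07 without histidine. At 50%, 45.8% of them were above 0, beside 47.5% of all genes. The 285 genes that fell on day 9 had medians on day 6 of -0.06 at 50%, -0.66 at 25%, -1.12 at 12.5% and -1.23 without histidine. The no-histidine library whose labels disagree on the day had list medians of 1.17 and -1.32, beside 1.10 and -1.16 in replicate 2 and 1.11 and -1.16 in replicate 3. Of the genes that fell on day 9, 66.0% were below 0 at 50% on day 6, beside 52.5% of all genes. By library their median at 50% was -0.03, 0.04 and -0.15 in replicates 1, 2 and 3. The 100% libraries of that day ran from -0.03 to 0.04, so the excess was mainly in replicate 3.

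Read the other way, from day 6 to day 9, the signs at 50% depended on the dose at which genes were chosen. The 324 genes that rose on day 6 had medians on day 9 of -0.04 at 50%, 0.43 at 25% and 0.84 at 12.5%, with 44.9% above 0 at 50% beside 54.0% of all genes. The 404 genes that fell had 0.09 at 50%, -0.60 at 25% and -0.94 at 12.5%, with 29.3% below 0 at 50% beside 46.0% of all genes. These values were largest in replicate 1 of day 9 (-0.12 for the genes that rose and 0.16 for those that fell) and smaller in replicate 2 (-0.01 and 0.03). Chosen instead at 25% histidine, the 137 genes that rose on day 6 had a median of 0.12 at 50% on day 9, with 74.5% above 0, and the 124 that fell had -0.02, with 52.0% below 0. Both signs were thus reversed, and now followed the restriction; replicate 1 had 0.18 for the genes that rose and replicate 2 had 0.05. Lists chosen at 25% on day 9 had medians on day 6 of -0.01 for 150 genes that rose and -0.05 for 145 that fell. The 8 medians at 50% were between -0.06 and 0.12. Values at different doses on one day share that day's 100% libraries.

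**Figure D5:**
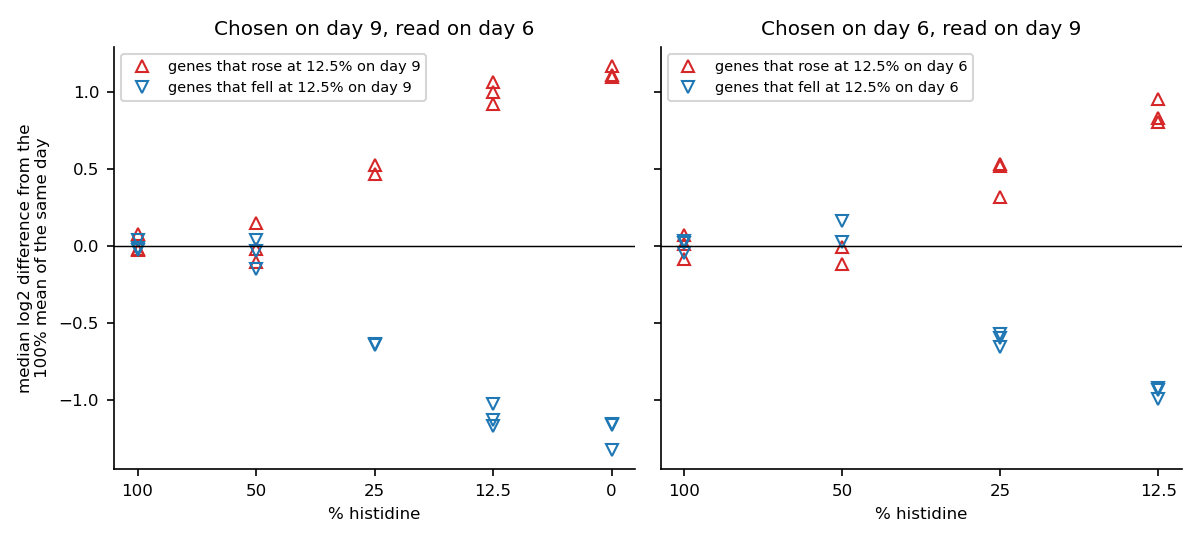
Median log2 difference from the 100% mean of the same day (vertical axis) in each library, against the percentage of histidine (horizontal axis), for genes chosen at 12.5% on the other day. Triangles pointing up are genes that rose and triangles pointing down genes that fell; libraries at 50% lie among those at 100%, or within 0.2 of 0, and both sets part at 25%.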

How the data were processed

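Per the labels' protocols, libraries were strand-specific and built from total RNA. The values are a signal, normalized counts by gene, that the authors deposited. The submitters' processing notes name FastQC 0.11.9, kallisto 0.50.1, DESeq2 1.44.0 and GRCh38. The annotation release and strand setting were not given in the sources used here. Scaling by size factors hides any change in total RNA per cell, and kallisto divides reads among near-identical transcripts. In the best case per library, 37.8% to 76.2% of values below 20 were within 0.05 of a whole multiple of one step. Reads were therefore not recovered, no count test was run, and depth in reads is unknown.

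Genes with a value of at least 10 in 5 or more of the 11 libraries were tested with limma 3.58.1 in R 4.3.3 (trend, two-sided) on log2(value + 1), which understates changes of low genes, with day as a term, and with Benjamini-Hochberg adjustment at 0.05. The day 6, day 9 and interaction contrasts came from a fit of 4 group means. The test was checked on simulated data. Lists were described by counts and medians, with no set test. Figures were drawn in Python 3.11.15 with matplotlib 3.10.9, and coordinates came from GENCODE 29, which may not be the authors' annotation.

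Genes named in the text were the 6 lowest p each way with a mean of at least 50, any gene past 0.05, up to 4 genes per list, the 6 largest each way at 25%, and a fixed list. SLC1A5 was named besides these after its values were seen. The groups, gene lists and rules were chosen with earlier results of these data known. Alternatives covered the pseudocount, filters, scaling, library weights, covariates, blocks and left-out libraries. Replicate numbers did not pair libraries: same-number pairs of 50% and 100% libraries correlated at -0.07 to 0.03 in their deviations from group means. The series text names days 3 and 6, while the sample labels used here give days 6 and 9.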

Additional observations from a re-analysis of the deposited data

Results flagged for a closer look

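Within the groups of 5 or 6 libraries, both days together, 78 groups of values were examined for a lowest or highest library far from the others, of which chance would mark about 1 in 20 (3.9), and 8 were marked. The keratin sum was highest in replicate 1 of day 6 at 50% (1196.1, next 118.95) and in replicate 2 of day 6 at 100% (1405.73, next 383.159). The 5.8S rRNA was highest in replicate 2 of day 9 at 50% (592.869, next 157.12) and in replicate 3 of day 6 at 100% (1181.38, next 406.352). ASNS stood out in replicate 3 of day 6 at 50% (115.543, next 38.98), and SLC7A11, the cystine transporter, in replicate 2 of day 9 at 100% (1769.6, next 1337.26). SCD was lowest in replicate 1 of day 9 at 50% (18829.9, next 21934.7). H2AC6, a histone gene, was highest in replicate 3 of day 6 at 100% (179.377, next 81.47), the library that was also highest in 5.8S rRNA. Groups held both days, and their part in these values was not tested.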

How the results depend on the processing

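The pooled comparison of 50% with 100% histidine called 0 genes in all 17 other settings and without each library. The share of genes held within 1.5-fold was 69.96% and was recomputed under only 2 alternatives, at 70.0% with all 25 libraries in the fit and 78.0% with a pseudocount of 8, with no library left out. Single days moved more. On day 6, library weights called 902 genes, 464 higher and 438 lower; the estimation of those weights stopped before it converged, with replicate 1 at 50% weighted 25.3 and the other libraries 0.33 to 1.79. On day 9, a filter that asked only for values above 0 in 2 libraries called 1 gene (H3C15), a fit without a trend 2, a fit of all 25 libraries 1 (SENP3-EIF4A1) and a keratin covariate 1 (TBX19). Replicate numbers did not pair the libraries; with the replicate number as a block within day or across days, day 9 had 1 call in each fit, and the block left the pooled count at 0. Leaving out a library gave 0 to 13 calls on day 9 (2 without replicate 1 and 13 without replicate 2 at 50%, where 1 library is left and is assumed to vary like the others) and 0 to 2 for the difference between days (2 without replicate 1 and 1 without replicate 2 of day 9 at 50%). At 25% the count was 5087 to 5460 without single libraries and 3699 without the libraries over 100 in keratin. At 12.5% it was 5974 to 6531 without single libraries, and between 25% and 50% it was 3166 to 4456, and 1406 without the keratin libraries. Choosing responders at 25% in place of 12.5% reversed both day 9 signs, with medians on day 9 at 50% of 0.12 for genes that rose on day 6 and -0.0166 for genes that fell. Of 165 named genes and other features, 0 passed at 50% in any of 28 settings (lowest adjusted p 0.154), 125 kept their sign and 40 turned. Of 27 lists, 9 kept the sign of their median in all settings and 18 turned. Causes were not tested. Count tests were not run, since reads were not recovered. Intervals were widest for low genes, and day 9 has 2 libraries at 50%.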
